A study of Mus musculus with 2 samples.

Results

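The 38 genes described here make, regulate, export or store sterols and fatty acids. They were fixed by name and matched to the gene symbols of the deposited count tables, and all 38 were found among the 32285 genes listed. By role, 19 are targets of Srebf2 (the enzymes that build cholesterol from acetyl-CoA, with *Insig1* and *Stard4*), 10 belong to fatty acid synthesis, 5 to sterol efflux and storage, and 4 to the machinery that controls the SREBP factors.

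Single-cell RNA was measured in CD8+ tumor-infiltrating lymphocytes (TIL) sorted from B16-F0 tumors, a transplanted mouse melanoma, on day 14. The mice were C57BL/6 males aged 16 weeks. A single library was made from lean mice kept on normal chow (NC) and a single library from obese mice fed a western diet (WD) for 12 weeks. The number of mice behind each library is not given in the sources used here, so each diet is represented by 1 library and no test between diets was possible.

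Cholesterol synthesis is switched on when membranes run low in sterol. The protein SCAP then carries the factor SREBP2, encoded by *Srebf2*, from the endoplasmic reticulum to the Golgi, where it is cut and released to the nucleus, while the INSIG proteins hold SCAP back when sterol is plentiful. SREBP1, encoded by *Srebf1*, drives fatty acid synthesis in the same way, and the LXR receptors answer an excess of oxysterols by raising the exporters *Abca1* and *Abcg1*. Activated T cells are known to turn sterol synthesis on and LXR targets off as they grow and divide.

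After cells with 7.5% or more mitochondrial UMIs (molecular barcodes that count captured transcripts once), or with UMIs outside 500 to 50000, were left out, 2456 lean cells with 27815785 UMIs and 2289 obese cells with 28705830 UMIs remained, and 2 cell barcodes occurred in both libraries. Levels are UMIs summed over cells per 1000000 UMIs of the same cells (CPM). Libraries are compared by the log2 ratio of obese over lean, and all 95% intervals cover counting error only, not differences between mice. Genes with at least 10 CPM in 1 library were counted, and a log2 ratio of 0.3 or more was used as the fold. Markers of the CD8 T cell lineage were all detected and summed to 5722 CPM in the lean and 5009 CPM in the obese library, whereas 5 melanoma genes together reached 1.19 and 1.92 CPM. The cells formed 6 clusters when all 38 genes and the other genes of these pathways were kept out of the clustering. Cluster 2 (999 cells, with *Lef1* and *Klf3* among its leading genes) was naive- or memory-like, cluster 1 (1051 cells, led by *Pclaf*, *Nusap1* and *Birc5*) proliferating-like, and cluster 3 (923 cells, led by *Gzmd*, *Penk* and *Gzme*) effector-like. Cluster 0 (1185 cells, led by *Ifit3b*, *Ifit3* and *Gzma*) also stayed unnamed, since most of its cells fell in a cluster led by *Gzma* at a finer resolution. The shallow cluster 4 (557 cells) was not named either, and cluster 5 (30 cells) was dendritic-like.

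The promoters of 5 of the genes, from the Srebf2 targets and the fatty acid group, are shown as examples. They are not the 5 genes with the largest differences between libraries or cell states. *Hmgcs1* encodes the synthase that commits acetyl-CoA units to the mevalonate pathway, *Idi1* the isomerase of its isoprenoid units, *Cyp51* the demethylase of lanosterol, *Insig1* the sterol-sensing brake on SCAP, and *Fasn* the fatty acid synthase. The 250 bases before the start site are given 5′ to 3′ on the strand of the gene, from RefSeq on GRCm38.p6. Capitals mark the core of a sterol regulatory element (TCACNCCAC) and the CCAAT box bound by NF-Y (CCAAT, read as ATTGG on the other strand).
Hmgcs1, chr13:119690101-119690350 (plus strand): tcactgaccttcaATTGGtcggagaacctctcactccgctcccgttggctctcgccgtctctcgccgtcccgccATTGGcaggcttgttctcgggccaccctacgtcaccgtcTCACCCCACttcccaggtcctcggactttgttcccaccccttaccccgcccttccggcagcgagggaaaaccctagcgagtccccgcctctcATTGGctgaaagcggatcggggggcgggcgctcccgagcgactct
Idi1, chr13:8885356-8885605 (plus strand): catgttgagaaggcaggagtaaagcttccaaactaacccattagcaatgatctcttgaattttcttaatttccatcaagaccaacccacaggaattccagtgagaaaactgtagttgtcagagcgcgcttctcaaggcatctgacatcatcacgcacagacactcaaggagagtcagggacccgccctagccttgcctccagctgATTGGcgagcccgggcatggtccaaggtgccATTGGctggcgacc
Cyp51, chr5:4104698-4104947 (minus strand): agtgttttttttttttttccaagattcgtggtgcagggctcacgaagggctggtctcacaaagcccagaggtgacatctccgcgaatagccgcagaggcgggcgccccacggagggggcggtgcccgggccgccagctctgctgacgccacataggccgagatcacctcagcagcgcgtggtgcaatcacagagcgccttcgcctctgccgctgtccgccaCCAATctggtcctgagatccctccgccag
Insig1, chr5:28071162-28071411 (plus strand): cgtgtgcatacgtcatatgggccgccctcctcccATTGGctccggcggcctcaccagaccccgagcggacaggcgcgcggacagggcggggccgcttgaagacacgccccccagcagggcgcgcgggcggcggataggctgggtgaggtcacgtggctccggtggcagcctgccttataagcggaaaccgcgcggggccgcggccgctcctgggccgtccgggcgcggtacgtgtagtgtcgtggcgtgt
Fasn, chr11:120824548-120824797 (minus strand): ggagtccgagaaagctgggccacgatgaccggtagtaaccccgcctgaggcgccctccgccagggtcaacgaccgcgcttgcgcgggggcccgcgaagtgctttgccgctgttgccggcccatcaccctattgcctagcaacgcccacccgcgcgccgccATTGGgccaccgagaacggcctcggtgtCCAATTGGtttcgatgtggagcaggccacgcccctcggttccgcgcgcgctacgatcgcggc

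In this stretch an exact match to the element core stood once, in *Hmgcs1*, at −137. Only exact matches to TCACNCCAC were searched, so elements that differ from these letters would be missed. A CCAAT box stood in all 5 promoters, with its first base at −29 from the start in *Cyp51*, at −45 and −14 in *Idi1*, at −216 in *Insig1* and at −237, −176 and −45 in *Hmgcs1*. *Fasn* had boxes at −90, −62 and −59, of which the last pair, on opposite strands, overlapped by their ends. A promoter window of 300 bases, from 250 before to 50 after the start, was found for 30 of the 38 genes. On either strand CCAAT occurred in 14 of the 15 Srebf2 targets with a window, against 42.9% of the 5643 genes that passed 10 CPM and had a window, and 37.4% of all promoters. The Sp1 motif GGGCGG also occurred in 14 of 15, but in 71.0% of the genes that passed 10 CPM and 35.7% of all promoters. TCACNCCAC occurred in 1 of 15, against 1.24% of all promoters. In the fatty acid genes with a window CCAAT occurred in 4 of 7, and among the efflux and storage genes in 2 of 4 (*Mylip* and *Soat1*). Some genes have several windows, which gives them more chances of a match, and a match is only a description of the letters.

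Transcripts of cholesterol synthesis were higher in the obese library over all cells. The libraries filled the clusters unequally, with 468 lean and 717 obese cells in cluster 0 and 478 and 573 in cluster 1. Cluster 2 held 575 and 424 and cluster 3 held 617 and 306, so ratios over all cells join states in unequal numbers. Of the 19 Srebf2 targets 18 passed 10 CPM, and past the fold were 11 higher and 0 lower, against 9.23% higher and 4.7% lower among the 7064 genes that passed. The median log2 ratio of the 18 was 0.36, beside 0.035 over all genes that passed. Of the 11, however, *Acat2*, *Mvd*, *Nsdhl* and *Hsd17b7* passed only through the obese library, where they were higher. With 10 CPM asked of both libraries, 7 of 14 targets were past the fold higher and 0 lower, against 8.03% and 3.9% of 6696 genes, and the median was 0.30. Summed over the 19 genes the level was 480 CPM in the lean library (13345 UMIs) and 594 CPM in the obese library (17041 UMIs), a log2 ratio of 0.31 (95% interval 0.27 to 0.34).

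**Figure D1:**
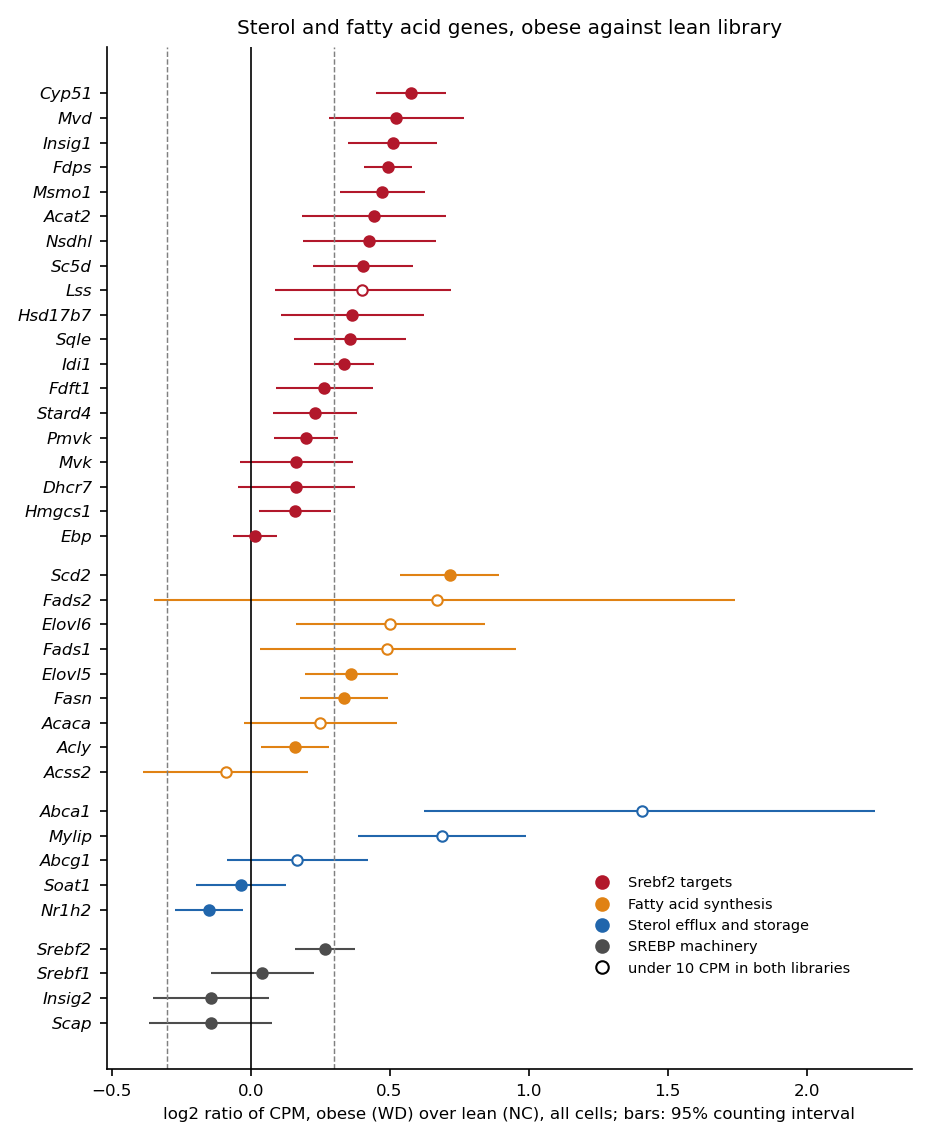
Log2 ratio of CPM in the obese (WD) over the lean (NC) library, all cells, for the 37 genes with at least 30 UMIs in both libraries together (all but *Scd1*). Points are single genes, bars are 95% counting intervals, dashed lines mark a log2 ratio of 0.3 in each direction, and open points are genes under 10 CPM in both libraries. The Srebf2 targets lie at or to the right of 0, from *Ebp* at 0.01 to *Cyp51* at 0.58, while the passing genes of efflux and storage lie just left of it.

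The difference ran along the whole route from acetyl-CoA to cholesterol, but unevenly. In the mevalonate arm *Fdps*, which makes farnesyl diphosphate (chromosome 3, 89093588 to 89101959 on GRCm38), was at 65.6 CPM in the lean and 92.4 CPM in the obese library, a log2 ratio of 0.49 (0.41 to 0.58). *Mvd*, the decarboxylase that closes the arm, was at 8.56 and 12.3 CPM (0.52, 0.28 to 0.77). *Idi1* was at 45.1 and 56.9 CPM (0.34, 0.23 to 0.44), and *Acat2*, the thiolase of the first step, at 7.59 and 10.3 CPM (0.44, 0.18 to 0.71). The synthase *Hmgcs1* and the kinases *Pmvk* and *Mvk* stayed under the fold, with log2 ratios of 0.16, 0.20 and 0.16, and the interval of *Mvk* (−0.04 to 0.37) held 0.

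In the sterol arm the largest ratio was that of *Cyp51* (chromosome 5, 4081145 to 4104746), at 30.6 CPM in the lean and 45.7 CPM in the obese library (0.58, 0.45 to 0.70). *Msmo1*, the methyl sterol oxidase that acts later on the route, was at 21.1 and 29.3 CPM (0.47, 0.32 to 0.63). The C4 demethylating dehydrogenase *Nsdhl*, the ketoreductase *Hsd17b7*, the desaturase *Sc5d* and the squalene epoxidase *Sqle* had log2 ratios of 0.43, 0.37, 0.40 and 0.36. The squalene synthase *Fdft1* was at 0.27 and the last reductase of the route, *Dhcr7*, at 0.16 (−0.05 to 0.38). *Ebp*, the sterol isomerase, was at 90.2 CPM in the lean and 91.1 CPM in the obese library, a log2 ratio of 0.01 (−0.06 to 0.09). Cyclization by *Lss* was the one step under 10 CPM in both libraries, at 5.25 and 6.93 CPM.

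The sterol sensor *Insig1* (chromosome 5, 28071363 to 28078662), itself an SREBP2 target, was at 19.4 CPM in the lean and 27.7 CPM in the obese library (0.51, 0.35 to 0.67). *Stard4*, which moves cholesterol between membranes, was at 23.1 and 27.1 CPM (0.23, 0.08 to 0.38).

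Fatty acid synthesis showed a difference of like size over fewer measurable genes. Of 10 genes 4 passed 10 CPM, of which 3 were past the fold higher and 0 lower, against 9.23% and 4.7% of all genes that passed. Their median log2 ratio was 0.35, beside 0.035 over all genes that passed. *Scd2*, a desaturase that makes monounsaturated fatty acids, was at 14.8 CPM in the lean and 24.4 CPM in the obese library (0.72, 0.54 to 0.90). Its paralog *Scd1* gave 1 UMI in the lean and 6 UMIs in the obese library. *Fasn* (chromosome 11, 120805846 to 120824547) was at 20.5 and 25.8 CPM (0.34, 0.18 to 0.50) and the elongase *Elovl5* at 18.6 and 23.9 CPM (0.36, 0.20 to 0.53). *Acly*, which turns citrate into cytosolic acetyl-CoA, was at 36.6 and 40.9 CPM and stayed under the fold (0.16, 0.04 to 0.28). The other route to acetyl-CoA, by the acetate-using *Acss2*, was at 7.05 and 6.62 CPM, one of 6 genes under 10 CPM in both libraries that reached from *Scd1* to *Acaca* at 8.64 CPM in the obese library. Summed over the 10 genes the level was 112 CPM in the lean and 141 CPM in the obese library (0.33, 0.26 to 0.40).

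The genes of sterol efflux and storage gave no clear direction as a group. Their summed level was 77.7 CPM in the lean and 78.7 CPM in the obese library, a log2 ratio of 0.02 (−0.07 to 0.10), but without *Nr1h2*, the member with the most UMIs, the ratio was 0.18. Only *Nr1h2*, which encodes the receptor LXRβ, and *Soat1*, which esterifies cholesterol for storage, passed 10 CPM, and neither was past the fold in either direction. Their median was −0.09, and it was 0.17 over all 5 genes when 3 UMIs in each library were enough to pass. *Nr1h2* was at 40.5 and 36.5 CPM (−0.15, −0.27 to −0.03) and *Soat1* at 22.4 and 21.9 CPM (−0.03, −0.20 to 0.13). Below 10 CPM, the ubiquitin ligase *Mylip*, an LXR target that degrades lipoprotein receptors, had 148 UMIs in the lean and 246 in the obese library (5.32 and 8.57 CPM; 0.69, 0.39 to 0.99). The exporter *Abca1* had 19 and 52 UMIs (1.41, 0.62 to 2.25) and the exporter *Abcg1* 244 and 283 UMIs (0.17, −0.08 to 0.42).

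Of the control machinery, *Srebf2* itself was at 45.4 CPM in the lean and 54.6 CPM in the obese library, a log2 ratio of 0.27 (0.16 to 0.38) that stayed under the fold. *Srebf1* was at 16.6 and 17.1 CPM (0.04, −0.14 to 0.23). The escort *Scap* and the sensor *Insig2*, which is not itself an SREBP2 target, had log2 ratios of −0.14 each, with intervals that held 0. None of the 4 genes was past the fold in either direction, and their median was −0.05.

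The Srebf2 targets were further apart between cell states than between libraries. The 19 Srebf2 targets of cluster 2, the naive- or memory-like cells, summed to 182 CPM in the lean and 206 CPM in the obese library, and in the proliferating-like cluster 1 to 644 and 775 CPM. Cluster 1 over cluster 2 was thus a log2 ratio of 1.83 (1.72 to 1.93) in the lean and 1.91 (1.80 to 2.02) in the obese library. The median over all genes that passed was 0.44 and 0.46, so most genes were higher in cluster 1. At a fold of 1 on the log2 scale, 14 of the 16 targets that passed were higher in the lean library, against 25.2% of all genes that passed (7.71% lower), and in the obese library 18 of 18 were, against 26.1% (7.57% lower). Most of these, 11 of the 16 and 12 of the 18, reached 10 CPM only in cluster 1. With 10 CPM asked of both clusters, 4 of 5 targets in the lean library were past the fold, against 18.4% of genes, and 6 of 6 in the obese library, against 19.3%. The effector-like cluster 3 lay between, at 466 and 623 CPM. Over cluster 2 its log2 ratio was 1.36 (1.25 to 1.47) in the lean library, with 12 of 14 targets past the fold against 16.8% of all genes (5.66% lower). In the obese library it was 1.60 (1.48 to 1.71), with 16 of 17 against 19.7% (4.95% lower). The median over all genes that passed was 0.34 in the lean and 0.37 in the obese library. Here too 9 of the 14 and 11 of the 17 reached 10 CPM only in cluster 3, and with both clusters at 10 CPM 4 of 5 and 5 of 6 targets were past the fold, against 11.2% and 13.3%. No target was past the fold lower in any of these comparisons. Cluster 0 was at 273 and 301 CPM. At a finer resolution part of cluster 1 did not score as proliferating-like against all other cells. Part of cluster 3 did not score as effector-like, as given below. Clusters are groups of cells within each library and are not samples, and their median depths differed, at 7622 UMIs per cell in cluster 2, 22568 in cluster 1 and 12063 in cluster 3.

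**Figure D2:**
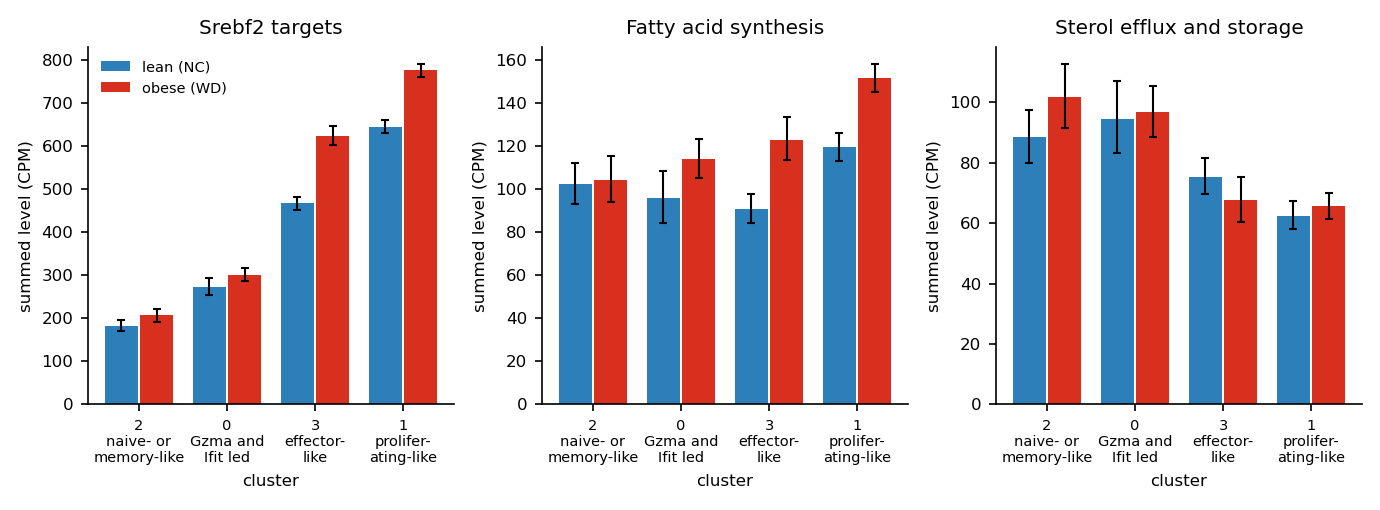
Summed level (CPM) of the Srebf2 targets, the fatty acid synthesis genes and the genes of sterol efflux and storage in clusters 2, 0, 3 and 1, with the lean (NC) library in blue and the obese (WD) library in red and bars for 95% Poisson intervals. The Srebf2 targets climb from 182 CPM in cluster 2 to 644 CPM in cluster 1 in the lean library and from 206 to 775 CPM in the obese one, while efflux and storage is lower in cluster 1 than in cluster 2 in both.

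Single enzymes spanned a wide range between states. *Idi1* was at 7.75 CPM in cluster 2 and 78.3 CPM in cluster 1 of the lean library, and at 9.89 and 86.0 CPM in the obese library, which is a log2 ratio of 3.34 and 3.12. *Cyp51* had log2 ratios of 2.72 and 3.01 and *Sqle* of 3.11 and 2.29. *Insig1* separated the clusters least among the targets that passed in both libraries, apart from *Acat2* in the lean one, at 0.84 in the lean and 1.05 in the obese library.

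The fatty acid genes did not follow as a block, and of the 5 that passed in each library 1 was past the fold higher in cluster 1 (*Scd2*, against the 25.2% and 26.1% above) and 1 lower (*Acss2*, against 7.71% and 7.57%). Both passed through 1 of the clusters only. With 10 CPM asked of both clusters, 0 of 3 genes were past the fold in either direction in either library. Of all genes 18.4% were then higher and 4.55% lower in the lean library, and 19.3% and 5.01% in the obese one. *Scd2* was at 3.76 CPM in cluster 2 and 20.4 CPM in cluster 1 of the lean library and at 4.52 and 29.9 CPM in the obese one (log2 ratios of 2.44 and 2.72). *Fasn* was higher in cluster 1 by 0.55 and 0.97, and *Elovl5* was lower in cluster 1 than in cluster 2 by a log2 ratio of −0.53 and −0.40. The acetate-using *Acss2* was at 15.9 CPM in cluster 2 and 2.63 CPM in cluster 1 of the lean library, and at 12.4 and 2.87 CPM in the obese one. *Acly*, whose enzyme makes the same product from citrate, was higher in cluster 1, by 0.64 and 0.69. Summed over the 10 genes cluster 1 was above cluster 2 by 0.23 (0.07 to 0.38) in the lean and 0.54 (0.38 to 0.70) in the obese library. The median over all genes that passed was 0.44 in the lean and 0.46 in the obese library. The lean sum thus lay below the typical gene and the obese sum slightly above it.

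The exporters ran the other way, and of the 4 efflux and storage genes that passed 2 were past the fold lower in cluster 1 (*Abcg1* and *Mylip*, against 7.71% and 7.57% of all genes) and 1 higher (*Soat1*, against 25.2% and 26.1%). *Abcg1* and *Mylip* reached 10 CPM only in cluster 2. With 10 CPM asked of both clusters, 0 of 2 genes were past the fold lower in either library. The share of all genes was 4.55% in the lean and 5.01% in the obese library. In each library 1 of the 2 was past the fold higher, against 18.4% and 19.3%. *Abcg1* was at 22.4 CPM in cluster 2 and 20.9 CPM in cluster 0 of the lean library, but at 5.78 CPM in cluster 3 and 2.71 CPM in cluster 1. In the obese library it was at 23.4, 22.0, 4.95 and 3.73 CPM in the same order. *Mylip* was at 17.5 CPM in cluster 2 and 1.23 CPM in cluster 1 of the lean library and at 25.7 and 3.09 CPM in the obese one, so that cluster 1 was lower by a log2 ratio of −3.83 and −3.06. *Abca1* gave 14 UMIs in cluster 2 of the lean library and 0 in clusters 1 and 3. Its level in cluster 2 was 3.10 CPM (1.69 to 5.20), whereas a count of 0 allows up to 0.263 CPM in cluster 1 and 0.361 CPM in cluster 3 (3 UMIs each). In the obese library it gave 33 UMIs in cluster 2, 1 in cluster 1 and 3 in cluster 3. *Soat1*, which stores what is not exported, was higher in cluster 1 than in cluster 2, by 1.27 and 1.08, and *Nr1h2* differed by −0.08 and 0.12. The medians over all genes that passed were 0.44 and 0.46.

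**Figure D3:**
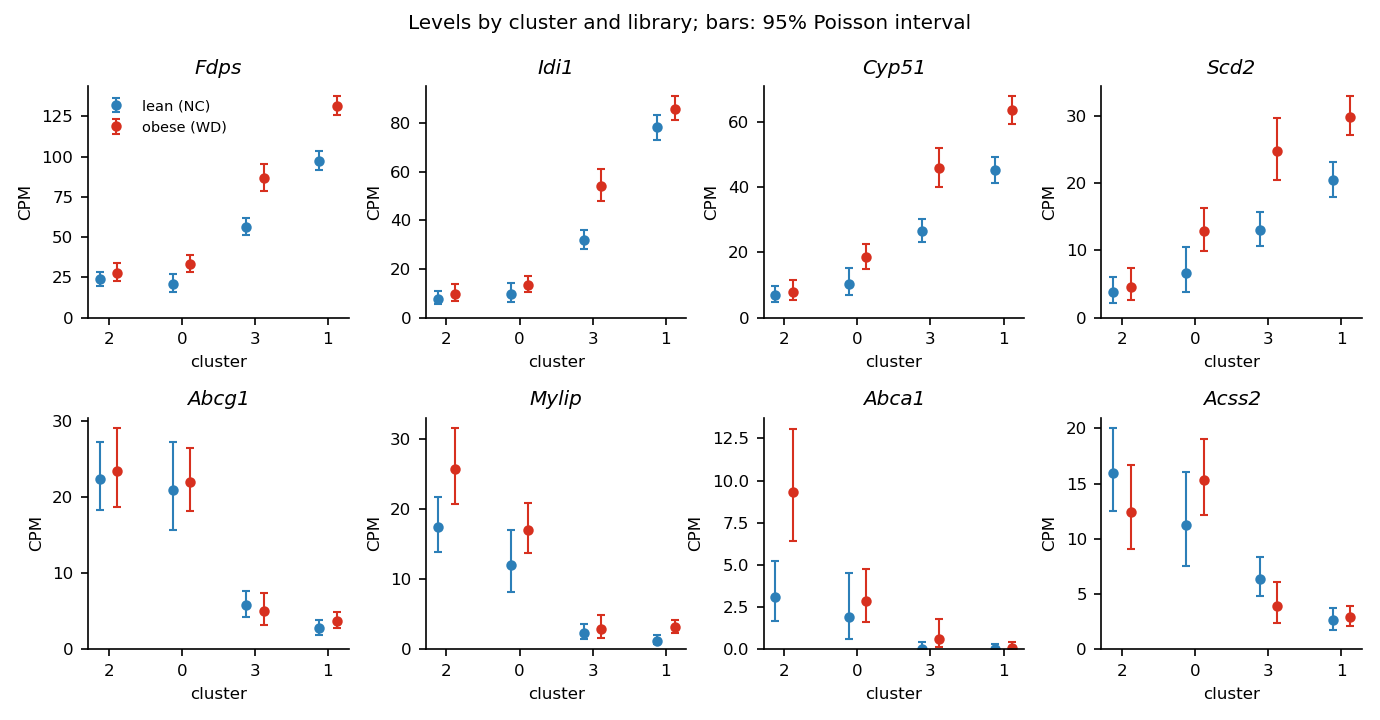
Level (CPM) of 8 genes in clusters 2, 0, 3 and 1, with the lean (NC) library in blue, the obese (WD) library in red and bars for 95% Poisson intervals. *Fdps*, *Idi1*, *Cyp51* and *Scd2* are highest in cluster 1 in both libraries, whereas *Abcg1*, *Mylip*, *Abca1* and *Acss2* are near their lowest there.

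Among clusters 0 to 3, the difference between libraries was largest in cluster 3, the effector-like cluster. A part of it, with more obese than lean cells, did not score as effector-like at a finer resolution, as given below. In cluster 3 the Srebf2 targets summed to a log2 ratio of 0.42 (0.35 to 0.49), with 13 of 17 past the fold higher and 0 lower, against 18.3% and 10.6% of all genes. In cluster 1 it was 0.27 (0.22 to 0.31), with 9 of 18 higher and 0 lower, against 9.43% and 6.77%. Cluster 2 was at 0.18 (0.04 to 0.33), where only 6 targets passed and 1 was higher (*Msmo1*) and 0 lower, against 15.6% and 13%. Cluster 0 was at 0.14 (0.01 to 0.27), with 6 of 12 higher and 0 lower, against 15.4% and 12%. With 10 CPM asked of both libraries the counts past the fold higher were 10 of 14 in cluster 3, 7 of 16 in cluster 1, 0 of 5 in cluster 2 and 3 of 9 in cluster 0, against 15.4%, 7.94%, 13.2% and 12.7% of genes. The shallow, unnamed cluster 4 was at 0.60 (0.40 to 0.79), from 431 and 652 CPM. The interval of cluster 3 lies above those of clusters 0, 1 and 2, but whether the diets differ more in 1 state than in another could not be tested with 1 library each. The cells of cluster 3 were not matched between libraries, with a median of 11209 UMIs per lean and 14053 per obese cell. Summed effector-like markers had a log2 ratio of −0.61 there and −0.75 in cluster 1. Naive- or memory-like markers were at 0.59 in cluster 3 and 0.39 in cluster 1. The part of these differences in the sterol gene ratios was not tested.

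**Figure D4:**
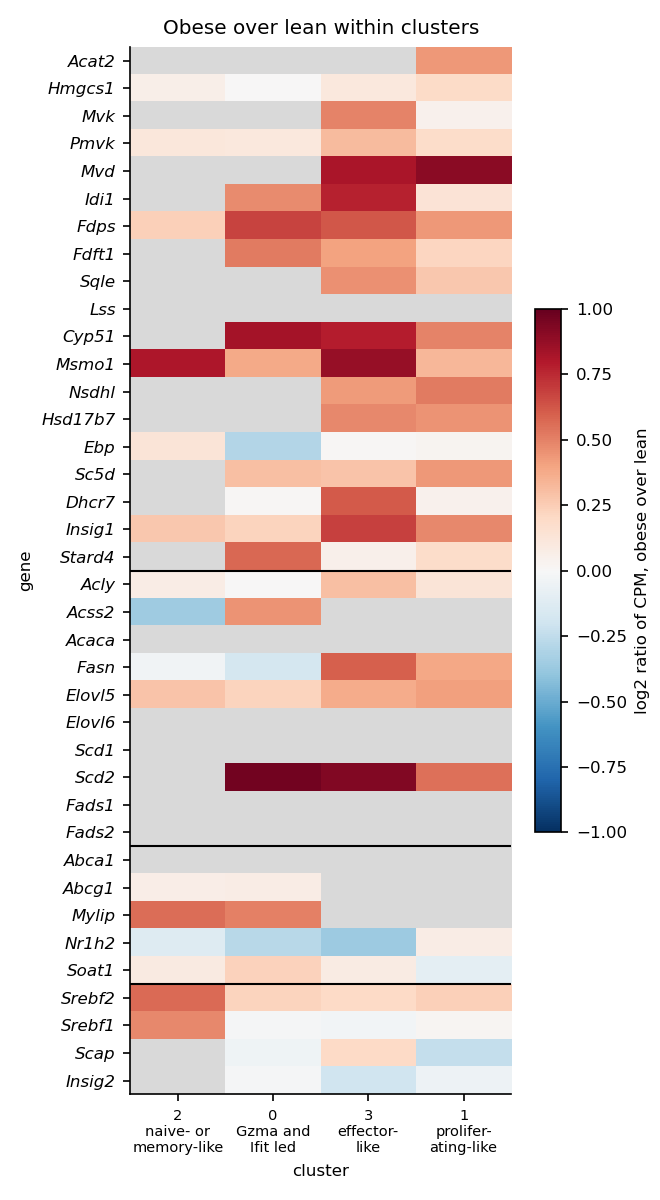
Log2 ratio of obese over lean CPM for the 38 genes (rows, with lines between the 4 groups) in clusters 2, 0, 3 and 1 (columns). Red is higher and blue lower in the obese library, the scale ends at 1 in each direction, and grey marks genes under 10 CPM in both libraries of that cluster. The sterol enzymes are red in the columns of clusters 3 and 1, with *Msmo1* at 0.87 and *Cyp51* at 0.79 in cluster 3, and *Ebp* is pale there.

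*Idi1* and *Dhcr7* had larger ratios between libraries in cluster 3 than in cluster 1. The intervals of *Dhcr7* in these clusters overlapped, and the difference between clusters was not tested. *Idi1* was at 31.8 CPM in the lean and 54.2 CPM in the obese cells of cluster 3 (0.77, 0.52 to 1.02), but at 78.3 and 86.0 CPM in cluster 1 (0.14, 0.01 to 0.26). *Dhcr7* was at 10.0 and 15.3 CPM in cluster 3 (0.61, 0.14 to 1.08) and at 15.4 and 15.9 CPM in cluster 1 (0.04, −0.25 to 0.34). *Mvd* was at 7.83 and 13.8 CPM in cluster 3 and at 7.88 and 14.7 CPM in cluster 1, while its values in cluster 0 were 9.66 and 7.27 CPM and in cluster 2 9.74 and 6.78 CPM. *Ebp* was at 87.7 and 71.7 CPM in cluster 0 (−0.29, −0.53 to −0.05), and its ratios in clusters 1, 2 and 3 were 0.03, 0.13 and 0.01.

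In the fatty acid group 4 of 4 passing genes were past the fold in cluster 3 and 3 of 4 in cluster 1, with 0 lower in either, against 18.3% and 9.43% of all genes higher. *Scd2* had 108 lean and 120 obese UMIs in cluster 3, from fewer obese cells, a log2 ratio of 0.93 (0.54 to 1.32), and *Fasn* was at 13.5 and 20.4 CPM (0.60, with an interval above 0). In cluster 2, where 4 passed, 0 were past the fold higher (15.6% of all genes) and 1 lower (*Acss2*, against 13%), and the summed ratio was 0.03 (−0.17 to 0.23). In cluster 0 it was 0.25 (0.03 to 0.47), with 2 of 5 higher (15.4%) and 0 lower. There *Scd2*, at 6.57 CPM in the lean and 12.8 CPM in the obese library, passed only through the obese library, where it was higher. With 10 CPM asked of both libraries, 1 of 4 in cluster 0 was higher, against 12.7% of genes.

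Among the efflux genes in clusters 1, 2 and 3, *Mylip* and *Abca1* had intervals above 0 in cluster 2, and *Mylip* also in cluster 1 (14 and 43 UMIs; 1.33, 0.43 to 2.32). *Abca1* was at 3.10 CPM in the lean (1.69 to 5.20) and 9.32 CPM in the obese cells of cluster 2 (6.42 to 13.1), a log2 ratio of 1.59 (0.65 to 2.60) that rests on 14 and 33 UMIs. *Mylip* was at 17.5 and 25.7 CPM (0.56, 0.10 to 1.01), and *Abcg1* at 22.4 and 23.4 CPM (0.07, −0.37 to 0.50). *Srebf2* in the same cells was at 27.4 and 40.7 CPM (0.57, 0.21 to 0.93), against 0.24 in cluster 1 and 0.20 in cluster 3. In cluster 3 *Nr1h2* was at 42.9 and 33.4 CPM (−0.36, −0.64 to −0.09).

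The effector-like and naive- or memory-like clusters each hold several states, which the libraries filled unequally. At a resolution of 0.8, most cells of cluster 3 fell in a cluster led by *Gzmd* and *Gzme* (514 lean and 173 obese cells) or one led by *Cd81*, *Csf2* and *Penk* (104 lean and 134 obese cells). The Srebf2 targets summed to 482 CPM in the lean and 712 CPM in the obese library in the former (0.56, 0.48 to 0.64) and to 374 and 466 CPM in the latter (0.32, 0.15 to 0.48). Cluster 1 split into one led by *Cdca7* and *Mcm3*, with 683 and 819 CPM (0.26, 0.21 to 0.32), and one led by *Nusap1* and histone genes, with 610 and 721 CPM (0.24, 0.18 to 0.31). *Idi1* was itself among the leading genes of the former. On the marker lists used for naming, the former scored −0.14 and the latter 3.07 for proliferating-like genes. The highest score of the former was effector-like, at 0.24. Each score compares a cluster with all other cells, the other part of cluster 1 included. On these lists the name proliferating-like thus rests on the latter. *Mcm3*, *Hells* and *Mcm7* were among the leading genes of the former, and its score cannot tell whether its cells were cycling. The former had the higher Srebf2 target sums in both libraries. Whether the level of these targets follows cell division was not tested. In cluster 2 the cells led by *Klra7* and *Tmem108* were at 184 and 227 CPM (0.30, 0.13 to 0.47), and those led by *Igfbp4* and *Lef1* at 172 and 171 CPM (−0.01, −0.32 to 0.30). The former held 443 lean and 219 obese cells and the latter 131 and 202. The efflux and storage genes were at 87.1 and 85.7 CPM (−0.02, −0.30 to 0.24) in the former and at 91.6 and 129 CPM (0.49, 0.09 to 0.90) in the latter, so the ratios given for cluster 2 join cells in unequal numbers. Of cluster 0, 1044 cells fell in a cluster led by *Gzma* and *Ier3* at 266 and 307 CPM (0.20, 0.06 to 0.35), while 131 cells led by *Rsad2* and *Ifit3b* were at 301 and 232 CPM (−0.37, −0.76 to 0.01).

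To describe how many cells carried these transcripts, each cell was thinned to 2000 UMIs, which left out 126 lean and 112 obese cells of lower depth. A Srebf2 target was then seen in 48.7% of lean cells (exact binomial interval 46.6% to 50.7%) and 53.3% of obese cells (51.2% to 55.4%). In cluster 3 the shares were 52.2% (48.2% to 56.2%) and 65.4% (59.7% to 70.7%), and in cluster 1 69.9% and 73.6%. In cluster 2 they were 31.8% and 35.6%. The mean number of target UMIs per thinned cell was 0.776 in the lean and 0.942 in the obese library. The tenth of cells with the most target UMIs held 39.4% of them in the lean and 39.1% in the obese library. A gene's UMIs were likewise spread over many cells, with the 10 highest cells holding 7.89% and 6.56% of those of *Fdps* in the lean and obese library. For *Abca1* the 10 highest cells held 68.4% of 19 and 38.5% of 52 UMIs.

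Other transcripts differed between the libraries as well. The 13 early-response and heat shock genes were listed as markers of handling, since they respond to tissue handling. Whether handling raised them here was not tested. They summed to 5006 CPM in the lean and 6774 CPM in the obese library (log2 ratio 0.44). Of the 13 genes 12 were above 0, beside 4079 of the 7064 genes that passed 10 CPM. Within clusters 0, 1, 2 and 3 the ratio of their sum was 0.35, 0.35, 0.35 and 0.60. Mitochondrial UMIs were 2.07% and 2.66% of all, and 10 proliferation genes summed to 3402 and 4110 CPM (0.27), and within clusters 0, 1, 2 and 3 to ratios of 0.31, 0.09, 0.17 and 0.09. The 11 effector genes summed to 6127 and 3659 CPM (−0.74), with 2 of 11 above 0. The 4 hemoglobin genes were at 0 in the lean library and summed to 320 CPM in the obese one, of which clusters 0 to 3 each held 2.27 CPM or less. The part of handling in the sterol gene results was not tested. With each cell thinned to 2000 UMIs the summed ratio of the Srebf2 targets was 0.28, and with equal weights for clusters 0 to 3 their median was 0.32.

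The wider pathway was near the background of all genes. Of 50 further genes of sterol and isoprenoid metabolism, SREBP control, fatty acid synthesis and LXR or sterol transport, 34 passed 10 CPM, 3 were past the fold higher and 0 lower, close to the 9.23% and 4.7% of all genes, and the median log2 ratio was 0.05. The 3 were *Lpin1*, a phosphatidate phosphatase that restrains nuclear SREBP, at 16.3 and 23.5 CPM (0.53, 0.35 to 0.70), the citrate carrier *Slc25a1* at 11.5 and 14.6 CPM (0.34, 0.13 to 0.56), and the LXR target *Arl4c* at 107 and 135 CPM (0.33, 0.26 to 0.40). *Arl4c* shared the state pattern of the exporters, with 287 CPM in cluster 2 and 36.3 CPM in cluster 1 of the lean library and 291 and 65.0 CPM in the obese one.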

How the data were processed

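Per the labels and the study's methods, CD8+ TIL were enriched on magnetic beads, sorted on CD8 staining, captured in droplets and sequenced from the 3′ end, which gives 1 UMI count per gene and cell. The authors made these counts with Cell Ranger 6.0.2 on mm10 (submitters' processing notes) and deposited them unnormalized as 1 matrix per library. The study's stated filters (under 7.5% mitochondrial UMIs, over 500 and under 50000 UMIs) left out 575 of the deposited cells (2697 lean and 2623 obese), whose total is the number the study gives after its own filtering. The median kept cell held 7958 UMIs and 2105 genes (lean) or 9103 UMIs and 2324 genes (obese).

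UMIs were summed per library and cluster with Python 3.11.15 (numpy 2.4.6, scipy 1.17.1, pandas 2.3.3). CPM carry exact Poisson intervals, ratios exact conditional binomial intervals and shares exact binomial intervals, all at 95% and for counting error only. No test was run, since a diet has 1 library. Clusters came from Seurat 5.3.0 in R 4.3.3 (2000 variable genes without the 38 members and 50 other pathway genes, 20 principal components, 20 neighbours, resolution 0.15, the lowest that gave 6 clusters) and were named from fixed marker lists. They are rebuilt and need not be the study's clusters. Doublets were not removed, and a limit of 30000 UMIs was tried instead. The interval code was run on simulated Poisson counts for 7064 genes, 200 of them given a changed ratio of obese over lean. The true ratio lay in the interval for 95.0% of the unchanged and 97% of the changed genes. Since the intervals assume Poisson counts, this checks the code and not the spread between cells or mice. Promoters are RefSeq's for GRCm38.p6 and gene positions GENCODE's for GRCm38.

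The genes named are the 38 members and those of the other pathway genes past a log2 ratio of 0.3 over all cells. Members, lists and rules were chosen with earlier results of these data known. Alternatives were TMM scaling (edgeR 4.0.16), another library total, thinning, a mean over cells, other cell filters, other limits on members, equal weights for clusters, and other clusterings.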

Additional observations from a re-analysis of the deposited data

Results flagged for a closer look

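Among the other pathway genes *Tecr*, the reductase that ends each round of very long chain fatty acid elongation, was higher in the obese library in cluster 1 (log2 ratio 0.24, 95% interval 0.14 to 0.33) and lower in cluster 2 (−0.38, −0.63 to −0.14). *Npc2*, a carrier of cholesterol out of lysosomes, was higher in the obese library in cluster 2 (0.28, 0.17 to 0.39) and lower in cluster 3 (−0.45, −0.55 to −0.35). Both were chosen after their values were seen, and stand out because the single library pair moved in opposite directions in 2 clusters, and the difference between clusters was not tested.

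The cells left out by the filters carried the same transcripts. In the 83 lean and 121 obese cells with 50000 or more UMIs the Srebf2 targets summed to 669 and 822 CPM and the fatty acid genes to 147 and 176 CPM. In the 158 lean and 213 obese cells with 7.5% or more mitochondrial UMIs the same sums were 381 and 516 CPM, and 188 and 302 CPM. These last sums rest on few UMIs, 128 and 311 for the Srebf2 targets (log2 ratio 0.44, 0.14 to 0.75). For the fatty acid genes they were 63 and 182 (0.69, 0.27 to 1.12). Of the 17 targets that passed in these cells, 11 were above 0 and 6 below.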

How the results depend on the processing

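The summed Srebf2 targets stayed higher in the obese library under every alternative that gave a sum, with log2 ratios from 0.26 to 0.37. They moved from 0.31 to 0.26 with TMM scaling, which shifted the median of all genes by −0.04, and to 0.26 with cells under 30000 UMIs. The count of targets past the fold was 7 when cells were thinned and 5 with a floor of 25 CPM, beside 11 in the main setting. For fatty acid synthesis it was 1 with that floor and 6 with a floor of 3 UMIs in each library, beside 3 in the main setting. The counts in this paragraph stand without the number of genes that passed and the share of all genes under each setting. Whether they mean a weaker or a stronger difference cannot be read from them. For efflux and storage the median was 0.073 with mitochondrial and ribosomal protein genes taken out of the total, 0.15 after thinning, 0.064 under 30000 UMIs and 0.17 with 3 UMIs, where more of the 5 genes passed. The count past the fold higher was then 1, 1, 1 and 2, and also 1 for a mean over cells. In the lean library its median in cluster 1 over cluster 2 was −2.06 after thinning. For the SREBP machinery the summed ratio turned from 0.11 to −0.065 after thinning, where 1 gene was past the fold higher and 1 lower. One gene was higher under 30000 UMIs and 1 with equal weights for clusters, 1 lower with a mean over cells, and the median was 0.27 with 25 CPM, where only *Srebf2* was left. After thinning, the summed fatty acid genes in cluster 3 over cluster 2 of the lean library turned from −0.17 to 0.14.

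Alternatives added after seeing the data were all deposited cells, no clusters 4 and 5, and each list without its most counted member, and a floor of 10 CPM in both groups. With that floor 7 Srebf2 targets were past the fold over all cells. In clusters 1 and 3 over cluster 2 it left *Nr1h2* and *Soat1* alone among the efflux and storage genes, whose median turned to 0.59 (lean) and 0.60 (obese) in cluster 1 and to 0.75 and 0.63 in cluster 3. With all deposited cells the Srebf2 targets were at 0.34. Without *Ebp* they were at 0.37, the fatty acid genes without *Acly* at 0.40, efflux and storage without *Nr1h2* at 0.18, and the machinery without *Srebf2* turned to −0.069. The cause of these shifts was not tested. No paired analysis was possible because each diet has 1 library. Differences between mice, between libraries and in handling cannot be told apart from the diet, and genes near 10 CPM in a cluster rest on few UMIs.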
